A study of Homo sapiens with 3 samples.

Results

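Growth factor receptor tyrosine kinases of glioma were followed across the arrays: EGFR, ERBB2, PDGFRA, PDGFRB, MET, FGFR1, AXL, EPHA2, DDR2 and KDR, 10 of the 25006 genes that could be named. They were chosen by gene symbol, and 14 of the 58201 non-control probes belong to them: 3 probes for EGFR, 2 each for PDGFRB and FGFR1, and 1 for each of the other 7 genes. U87 is a human glioblastoma cell line. U87WT (U87WT 5) is a stable clone transfected with GFP-IGF1R, a fusion of green fluorescent protein with the IGF1 receptor that can enter the nucleus, and U87Mut (U87Mut 5) is a stable clone with GFP-IGF1R1025x-1100x-1120x, in which lysines were replaced so that the receptor stays outside it. Both clones thus overexpress a tagged IGF1R, and each is a single clone, so a difference between the clones cannot be told apart from a difference between any 2 clones of U87. RNA of U87WT (Cy5) and of U87Mut (Cy3) was hybridized together to 3 two-color arrays, 1 from cells kept without serum (FBS-free medium), 1 from cells given 50 nM IGF1, and 1 from cells given the same IGF1 together with OSI906, an inhibitor of the IGF1R and insulin receptor kinases, all for 24 h. Values below follow that order of the arrays. The dose of OSI906 is 0.5 μM in the sample titles and in the study's own text, which has it added 1 h before IGF1. Another label field gives a higher figure. Each condition has a single array and the same dye served each clone throughout, so the dye bias of a probe cannot be told apart from the clone difference.

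Receptor tyrosine kinases carry a growth factor signal across the plasma membrane. Binding of the ligand brings 2 receptors together, the kinase domains phosphorylate each other, and adaptors that dock there start the RAS-ERK and PI3K-AKT cascades that IGF1R uses as well. In glioblastoma EGFR and PDGFRA are often amplified, and MET, AXL and EPHA2 have been linked with invasion and with resistance to inhibitors of other receptors.

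PDGFRB, which binds PDGF-B and PDGF-D, was higher in U87WT, and AXL, the receptor of GAS6, and EPHA2, a receptor of the ephrin-A ligands, were lower. These were the only receptors that passed the test across the 3 arrays. In bulk RNA, fewer cells with a transcript and less of it per cell cannot be told apart. The ratio was 1.99-fold for the brightest PDGFRB probe, and U87Mut exceeded U87WT 1.49-fold for AXL and 1.15-fold for EPHA2. The test was limma on the log2 ratio of U87WT over U87Mut with Benjamini-Hochberg adjustment at 5% over all probes. It called 4 of the 14 receptor probes, 2 higher and 2 lower in U87WT, against 8.77% of all probes and 17.9% of the probes well above background everywhere. Counted by the brightest probe of each gene, 1 of the 10 receptors was higher and 2 were lower, where 7.29% of all genes were higher and 6.9% lower. Since the arrays differ in treatment, response to treatment adds to the error of this test. Over the whole table it called 2601 probes higher and 2504 lower, and 163 and 557 when the background fit included the spots that the scanner software had marked as not uniform.

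**Figure D1:**
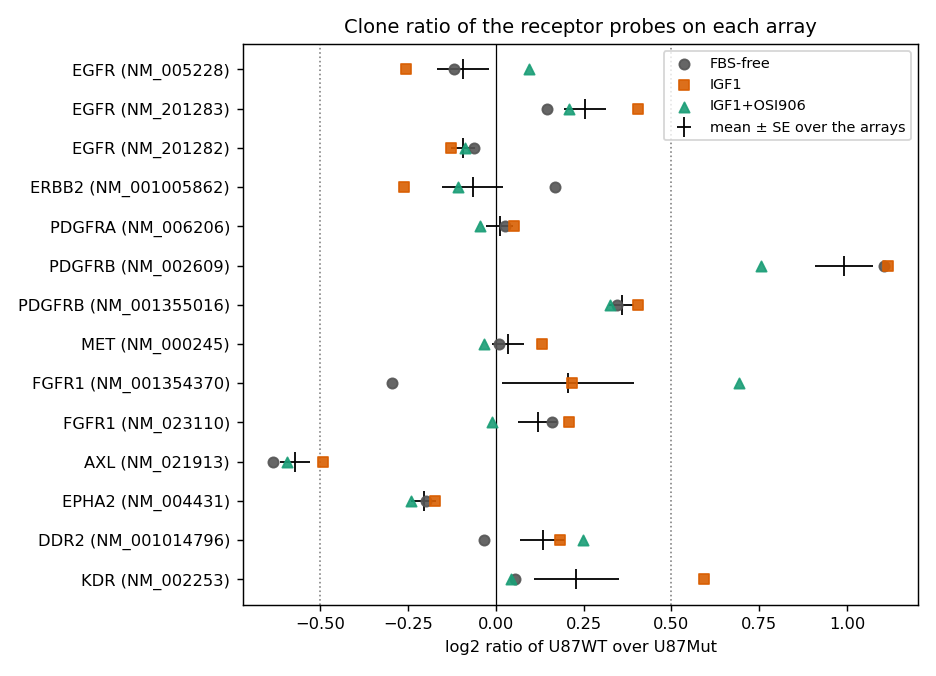
Log2 ratio of U87WT over U87Mut (x axis) for the 14 receptor probes (y axis, with the RefSeq transcript the array lists), 1 marker per array; vertical ticks and bars give the mean and the SE of the limma fit over the 3 arrays and dotted lines mark 0.5 and -0.5. The NM_002609 probe of PDGFRB lies above 0.5 and AXL at or below -0.49 on every array, while FGFR1 NM_001354370 runs from -0.29 to 0.69.

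The 250 bases before the transcript start of these 3 genes are shown because they are the members called in each direction. They come from RefSeq (GRCh38.p14) and run 5′ to 3′ on the strand of the gene. Windows were taken for 9 of the 10 receptors, all but FGFR1. Where a gene has several starts, the one farthest upstream was taken. Capitals mark matches on either strand to the letters of 6 motifs.
PDGFRB, chr5:150155846-150156095, minus strand: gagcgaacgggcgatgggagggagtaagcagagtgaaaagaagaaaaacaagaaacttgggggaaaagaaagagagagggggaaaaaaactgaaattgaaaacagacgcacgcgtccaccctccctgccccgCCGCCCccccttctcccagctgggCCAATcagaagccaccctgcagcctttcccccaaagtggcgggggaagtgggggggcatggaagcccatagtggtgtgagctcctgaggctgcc
AXL, chr19:41218973-41219222, plus strand: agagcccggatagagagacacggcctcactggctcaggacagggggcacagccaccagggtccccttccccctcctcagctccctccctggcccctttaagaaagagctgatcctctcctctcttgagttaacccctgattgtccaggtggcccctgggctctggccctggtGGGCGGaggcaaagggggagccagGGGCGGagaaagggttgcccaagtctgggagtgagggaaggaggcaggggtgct
EPHA2, chr1:16156070-16156319, minus strand: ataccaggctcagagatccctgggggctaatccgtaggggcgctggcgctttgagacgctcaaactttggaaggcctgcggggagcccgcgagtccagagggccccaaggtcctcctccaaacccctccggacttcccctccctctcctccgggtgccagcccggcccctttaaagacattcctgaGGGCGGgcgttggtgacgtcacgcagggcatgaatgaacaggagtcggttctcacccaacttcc
A GC box (GGGCGG) was found 2 times before AXL and 1 time each before PDGFRB and EPHA2, and 42.6% of all 35116 such windows hold one. PDGFRB also held 1 CCAAT box (CCAAT, in 32% of windows). No window of the 3 held an E-box (CACGTG, 6.34%), an AP-1 site (TGANTCA, 6.57%), an ETS site (CCGGAA, 14.5%) or a TATA box (TATAAA, 10.7%). Marked letters did not overlap between motifs. A match describes the letters and does not show that a factor binds.

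Among the PDGF receptors, PDGFRB was detected in both clones. Its NM_002609 probe had a brightness of 582, 441.5 and 344.5 in U87WT and of 265, 131.5 and 182 in U87Mut on the 3 arrays, over a local background of 20 to 22. Every U87WT value exceeded every U87Mut value. The log2 ratios, after normalization and with an offset of 50 that draws the ratios of dim probes toward 0, were 1.10, 1.12 and 0.75 in the same order, with a mean of 0.99 ± 0.08 (SE, n = 3 arrays) and an adjusted p of 0.00682 from limma. The second probe, listed for NM_001355016, was dimmer, at 107 to 114 in U87WT and 59 to 84 in U87Mut, and gave ratios of 0.34, 0.40 and 0.33 (mean 0.36 ± 0.04, adjusted p of 0.00984 from limma). Both probes thus put PDGFRB higher in U87WT on every array, by different amounts. The call on the first probe was lost with the marked spots in the background fit (0.72 ± 0.16, adjusted p of 0.181 from limma), where the ratio on the IGF1 array was 0.33.

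PDGFRA, the PDGF receptor that binds PDGF-A, was not well above background in either clone on any array. Its brightness of 22 to 28 lay over a local background of 20 or 21, so no ratio is given.

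AXL belongs to the TAM family of receptors, whose ligands GAS6 and protein S bridge to phosphatidylserine on membranes. Its single probe (NM_021913) had a brightness of 3413, 4114 and 3105 in U87WT and of 5247.5, 3589.5 and 4085 in U87Mut. Before normalization the clones overlapped, and the median spot of the IGF1 array read 30.5 in Cy3 against 32.5 and 33.5 on the other arrays. After it U87WT was at 11.56, 11.76 and 11.60 and U87Mut at 12.19, 12.25 and 12.20 on the log2 scale, without overlap. The log2 ratios were -0.63, -0.49 and -0.59, with a mean of -0.57 ± 0.04 (SE, n = 3 arrays) and an adjusted p of 0.00534 from limma. The mean was -0.60 ± 0.03 with the marked spots in the background fit. With median normalization in place of loess AXL was at 0.06 on the IGF1 array and -0.40 ± 0.19 in the mean (adjusted p of 0.709 from limma). With the signals of the scanner software, taken without a loess step here, AXL was at -0.47 on that array. Its direction there thus varied with the normalization. Without the array of IGF1 with OSI906 the adjusted p from limma was 0.0593, with a range of 0.00127 to 0.709 over all the alternatives tried.

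EPHA2, which signals between touching cells, was dim. Its probe (NM_004431) read 32, 38 and 35 in U87WT and 43, 40 and 43 in U87Mut over a local background of 21 or 22, and the brightness of U87WT was below that of U87Mut on each array. The log2 ratios were -0.20, -0.17 and -0.24 (mean -0.20 ± 0.04, adjusted p of 0.0353 from limma). Because of the offset the size is a low estimate: the mean was -0.35 at an offset of 20 and -0.66 without one. The call was lost in 8 of 12 alternatives, among them each array left out in turn, where the adjusted p from limma ran from 0.0543 to 0.179, and the ratio was below 0 in all 12.

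The ErbB receptors were not called. EGFR, the receptor of EGF and TGF-alpha, was read by 3 probes that are listed for different transcripts. The NM_005228 probe, for the full receptor, read 197, 163 and 239.5 in U87WT and 231, 151 and 213.5 in U87Mut. The log2 ratios were -0.12, -0.26 and 0.09 (mean -0.09 ± 0.07, adjusted p of 0.567 from limma). The clones overlapped, and the sign changed between arrays. The probes listed for NM_201283 and NM_201282, which encode short forms of EGFR without the kinase domain, had mean ratios of 0.25 ± 0.06 and -0.09 ± 0.04, with adjusted p values of 0.081 and 0.229 from limma. The NM_201283 probe was above 0 on all 3 arrays, at 0.15, 0.40 and 0.21, and the NM_201282 probe below 0 on all 3.

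ERBB2, which has no ligand of its own and pairs with the other ErbB receptors, was printed as 10 spots on each array. The spread of its ratio between spots is thus known, but not the error of labeling and hybridization. Its mean ratio on the log2 scale was 0.17 ± 0.09 without serum, -0.26 ± 0.07 with IGF1 and -0.11 ± 0.12 with both agents (SD over 10 spots of the same RNA). On the IGF1 array all 10 spots lay below 0, between -0.40 and -0.15, and in FBS-free medium they ran from -0.00 to 0.32. The spots of these 2 arrays did not overlap, yet each array is 1 hybridization, and the mean over arrays (-0.07 ± 0.09, adjusted p of 0.752 from limma) did not pass the test. Fitted with the marked spots, the IGF1 array gave -0.08. With median normalization in place of loess the ratios of ERBB2 were 0.00, -0.08 and -0.06. With the signals of the scanner software, taken without a loess step here, they were 0.25, -0.57 and -0.20. The gap between the FBS-free and IGF1 arrays thus varied with the normalization.

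MET, the receptor of hepatocyte growth factor, was not called. It read 9581.5, 9057 and 8361 in U87WT and 9019, 4922 and 7024 in U87Mut in the order above, and its log2 ratios were 0.01, 0.13 and -0.03. The mean was 0.04 ± 0.05 (adjusted p of 0.744 from limma). DDR2, a receptor of fibrillar collagen, read 625 to 807.5 in U87WT and 487.5 to 709 in U87Mut, with log2 ratios of -0.03, 0.18 and 0.25 (mean 0.13 ± 0.06, adjusted p of 0.339 from limma). With the marked spots in the fit the ratio of DDR2 on the IGF1 array turned to -0.21 and its mean to -0.00, and in the deposited values they were -0.28 and -0.01. Neither gene passed 0.5 on any array as reported. With median normalization in place of loess MET was at 0.74 and DDR2 at 0.56 on the IGF1 array.

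FGFR1, a receptor of basic fibroblast growth factor, gave different pictures by its 2 probes. The NM_001354370 probe read 765, 1266.5 and 1383.5 in U87WT and 996, 730.5 and 788 in U87Mut. U87WT was below U87Mut in FBS-free medium and above it on both other arrays, with log2 ratios of -0.29, 0.22 and 0.69. On the normalized log2 scale U87WT was higher by 0.61 with IGF1 and by 0.97 with IGF1 and OSI906 than without serum, where U87Mut differed by 0.10 and -0.01. The NM_023110 probe read 927.5, 670 and 614 in U87WT and 865, 398.5 and 589 in U87Mut, with ratios of 0.16, 0.21 and -0.01. By this probe both clones were lower after IGF1 than in FBS-free medium, by -0.51 in U87WT and -0.55 in U87Mut. The probes thus differed in opposite directions in U87WT, and neither mean ratio passed the test (0.21 ± 0.19 and 0.12 ± 0.05, adjusted p of 0.627 and 0.314 from limma). Fitted with the marked spots, the IGF1 array gave -0.18 for the first probe in place of 0.22, and -0.17 for the second in place of 0.21. Of the 120 spots within 5 rows and columns of the second probe on the FBS-free array, 39 were marked as not uniform; their part in its higher value there was not tested.

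KDR, the main VEGF receptor of endothelial cells, was near background. In U87WT its brightness was 29 without serum, 76 with IGF1 and 31 with IGF1 and OSI906, and in U87Mut it was 28, 25 and 30, not well above background on any array. The 2 clones thus read 1 unit apart without serum and with both agents. Since U87Mut gives only a bound, U87WT was at least 1.51-fold higher on the IGF1 array under this processing, and at least 1.17-fold over the 3 arrays, from means of 6.20 in U87WT and 5.97 in U87Mut on the log2 scale (adjusted p of 0.385 from limma). Neither bound holds under the other background fit given below. The high value on the IGF1 array stood among marked spots: its own local background in Cy5 was 36 against a median of 22 on that array and 19 or 20 at this spot on the others, and 52 of its 65 neighbors within 5 rows and columns were marked as not uniform, against 0 of 65 on both other arrays. Their local background had a median of 62. Fitted with the marked spots, the IGF1 array gave KDR a log2 ratio of 0.06, and the mean over arrays was 0.05. The part of these spots in its value was not tested. The endothelial markers, 5 of 5 measured, had mean log2 ratios between 0.01 and 0.11 and 0 were called by limma, and TIE1 was not well above background in either clone.

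**Figure D2:**
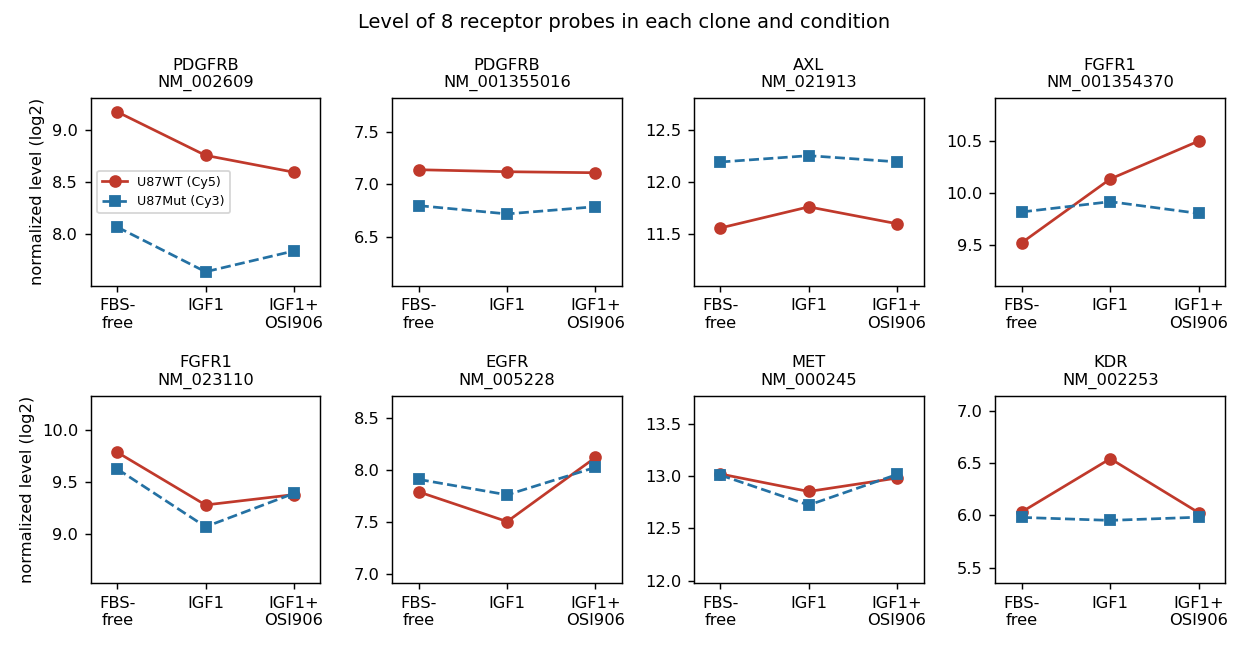
Normalized level on the log2 scale (y axis, each panel spanning 1.8 units) of 8 receptor probes in the 3 conditions (x axis); circles and full lines are U87WT and squares and dashed lines U87Mut, 1 array per condition and no error bar. PDGFRB is higher and AXL lower in U87WT throughout, the FGFR1 probes part in U87WT, and KDR stands apart between the clones on the IGF1 array, where its spot lies among marked spots.

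Array by array, few receptor probes passed a log2 ratio of 0.5 in either direction. PDGFRB NM_002609 and AXL did so in FBS-free medium (2 of 14 probes, against 4.61% of all probes), PDGFRB NM_002609 and KDR after IGF1 (2 of 14, against 4.38%), and PDGFRB NM_002609, FGFR1 NM_001354370 and AXL after IGF1 with OSI906 (3 of 14, against 4.24%). Among probes well above background everywhere the shares were 9.46%, 8.89% and 8.79%. These are sizes on single arrays with no test.

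Within each clone, the change from FBS-free medium to IGF1 was held to the same limit of 0.5. Among all probes 2.02% passed it in U87WT and 1.03% in U87Mut, and among probes well above background everywhere 3.99% and 2.10%. Of the 14 receptor probes 3 passed in U87WT and 1 in U87Mut. In U87WT these were FGFR1 NM_001354370 (0.61), KDR (0.51) and FGFR1 NM_023110 (-0.51), and in U87Mut FGFR1 NM_023110 (-0.55). Fitted with the marked spots, these 4 values were 0.37, -0.04, -0.68 and -0.36, so KDR changed sign, and the probes past 0.5 were FGFR1 NM_023110 and PDGFRB NM_002609 in U87WT and none in U87Mut. The NM_002609 probe of PDGFRB was at -0.42 in U87WT and -0.43 in U87Mut after IGF1, but at -1.01 and -0.26 with the marked spots in the fit and at -0.14 and -0.71 with median normalization in place of loess. AXL differed by 0.20 and 0.06, and MET by -0.17 and -0.29. With median normalization in place of loess AXL was at 0.59 in U87WT and -0.32 in U87Mut, and MET at 0.22 and -0.67. From IGF1 to IGF1 with OSI906, 2 of 14 probes passed 0.5 in U87WT (3.21% of all probes), EGFR NM_005228 (0.61) and KDR (-0.52), and 0 of 14 in U87Mut (1.19%). Among probes well above background everywhere these shares were 6.52% in U87WT and 2.44% in U87Mut. Fitted with the marked spots, EGFR NM_005228 was at 0.41 and KDR at 0.03, and 2 other probes were past 0.5 in U87WT, FGFR1 NM_001354370 (0.58) and PDGFRB NM_002609 (0.51, against -0.16 as reported). All 3 EGFR probes were higher with OSI906 than with IGF1 alone in both clones, by 0.23 to 0.61 in U87WT and by 0.22 to 0.42 in U87Mut. Whether the clones differ in these responses was not tested, since each value comes from 1 array.

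IGF1R itself, the transfected gene, had log2 ratios of 0.07, 0.23 and 0.09 (mean 0.13 ± 0.05, adjusted p of 0.201 from limma), and the insulin receptor gene INSR had 0.06, 0.33 and -0.04 (mean 0.12 ± 0.08). With the marked spots in the fit the means were 0.01 for IGF1R and -0.01 for INSR, and in the deposited values 0.00 and -0.02. Both clones carry the transgene and whether the IGF1R probe lies in it is not known here, so this does not check the labels. Of 7 glial markers VIM, CD44, NES and OLIG2 were well above background in both clones on all arrays, while GFAP and SOX2 were not on any. OLIG2 was dim, at 32 to 36 over a local background of 20 to 22. By limma 0 of the 7 markers were called. Their mean log2 ratios ran from -0.06 to 0.74 with a median of 0.14, the highest being VIM at 1.15, 0.29 and 0.77 (adjusted p of 0.0681 from limma). EPCAM, higher in U87WT (0.36 ± 0.07, adjusted p of 0.0464 from limma), was the only called gene among 24 markers of glial, endothelial, immune, pericyte, epithelial and neuronal cells with a probe. The call of EPCAM was not followed through the alternatives.

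Ligands of the 10 receptors or of their families were followed as a list of 32 genes. By their brightest probe 5 were higher and 3 lower in U87WT, where 7.29% of all genes were higher and 6.9% lower. The mean log2 ratio had a median of 0.03 over the list and -0.00 over all genes. PROS1, which encodes protein S, a ligand of the TAM family, was higher by 0.74 ± 0.08 (0.92, 0.78 and 0.53 on the 3 arrays). GAS6, named above as the ligand of AXL, was at -0.10 ± 0.03 and not called (adjusted p of 0.181 from limma). COL1A1 and COL1A2, the chains of the collagen that DDR2 binds, were higher by 0.70 ± 0.10 and 0.59 ± 0.06. NRG1, a ligand of ERBB3 and ERBB4 and through them of ERBB2, was lower in U87WT, at -1.10, -1.19 and -0.96 (mean -1.08 ± 0.05, adjusted p of 0.00307 from limma). EREG, a ligand of EGFR, was lower at -1.06, -0.98 and -0.44, and PDGFA at -0.34, -0.54 and -0.22. The second probe of PDGFA was at -0.14 and not called, and the mean of both was -0.25 (adjusted p of 0.0631 from limma). The other NRG1 probes were at -1.22 and -1.13. A VEGFA probe that was not the brightest of its gene, and so is outside the counts, was at -0.78, -0.49 and -0.59 (mean -0.62 ± 0.07, adjusted p of 0.0108 from limma). By its brightest probe VEGFA was not among the 3 lower genes, which were NRG1, EREG and PDGFA. The adjusted p from limma of PROS1, COL1A1, COL1A2, EREG and PDGFA ran from 0.0115 to 0.0454. So both ErbB ligands that were called were lower in U87WT, while EGFR and ERBB2 were not called.

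Among 41 other receptor tyrosine kinases, 3 were higher in U87WT, a share near the 7.29% of all genes, and 0 were lower, where 6.9% of all genes were, with a median of 0.04. EPHA4, an ephrin receptor like EPHA2 but of the opposite direction, was higher by 0.90 ± 0.06 (1.07, 0.80 and 0.83 on the arrays in the order above), CSF1R, the receptor of colony-stimulating factor 1, by 0.63 ± 0.05 and EPHB2, by its brightest probe, by 0.37 ± 0.05. The other 2 probes of EPHB2, well above background throughout, were at 0.06 and -0.02 and not called, and the mean of its probes was 0.14 (adjusted p of 0.0968 from limma). Of this list 19 genes were well above background in both clones on all arrays and 13 in neither clone on any. The adjusted p from limma was 0.00491 for EPHA4, 0.00494 for CSF1R and 0.0155 for EPHB2.

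Adaptors and signal proteins next to the receptors numbered 25, with 4 higher and 1 lower, beside 7.29% and 6.9% of all genes, and a median of 0.04. SHC3 and SHC1, which link phosphorylated receptors to GRB2, were higher by 0.74 ± 0.04 and 0.47 ± 0.06, and PIK3R1, a regulatory subunit of PI3K, by 0.65 ± 0.12. The other SHC1 probe was at -0.03 and the mean of both at 0.22 (adjusted p of 0.0582 from limma). The other SHC3 probes were at 0.34 and 0.03, and the mean of all its probes at 0.37 (adjusted p of 0.00901 from limma). NCK2 was lower, at -0.34 ± 0.05. Of 26 inhibitors of receptor signaling, 1 was higher and 3 were lower, against 7.29% and 6.9% of all genes, with a median of 0.01. ERRFI1, which binds and blocks the kinases of EGFR and ERBB2, was lower at -0.84, -0.47 and -0.46, the receptor phosphatase PTPRF at -0.51 ± 0.05 and RASA1, which turns RAS off, at -0.35 ± 0.07, while the phosphatase PTPN1 was higher by 0.48 ± 0.08. The adjusted p from limma of these 8 genes ran from 0.00314 to 0.0441.

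Genes that ERK signaling induces had a median of -0.14 over 16 genes. By their brightest probe 4 were lower and 1, EPHA4, higher, where 6.9% of all genes were lower and 7.29% higher. CCND1, which encodes cyclin D1, was at -1.39, -1.18 and -1.17 and MYC at -1.27, -1.26 and -1.09, with means of -1.25 ± 0.06 and -1.21 ± 0.05 (adjusted p of 0.00279 and 0.00264 from limma). A second MYC probe was not well above background in either clone. ETV1 was at 0.44 by its brightest probe and not called (adjusted p of 0.0963 from limma). Its other probes were at 0.58, 0.32 and 0.11, with adjusted p values of 0.0285, 0.012 and 0.421 from limma. ETV5, a transcription factor of the ETS family, was lower, at -0.59 ± 0.10 (adjusted p of 0.038 from limma). The difference in CCND1 and MYC stood in all 3 conditions, FBS-free medium included. Most genes of each list were not called. Over 12 alternatives, calls of the named list genes that passed by their brightest probe held in 3 (PDGFA) to 10 (CCND1, MYC and NRG1). Of these 20 genes, 8 were lost without the FBS-free array (COL1A1, EREG, ETV5, NCK2, PDGFA, PIK3R1, RASA1 and SHC1), and 0 without the IGF1 array. Without the array of IGF1 and OSI906 13 were lost (the same genes except EREG, with COL1A2, EPHA4, EPHB2, ERRFI1, PTPN1 and PTPRF).

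**Figure D3:**
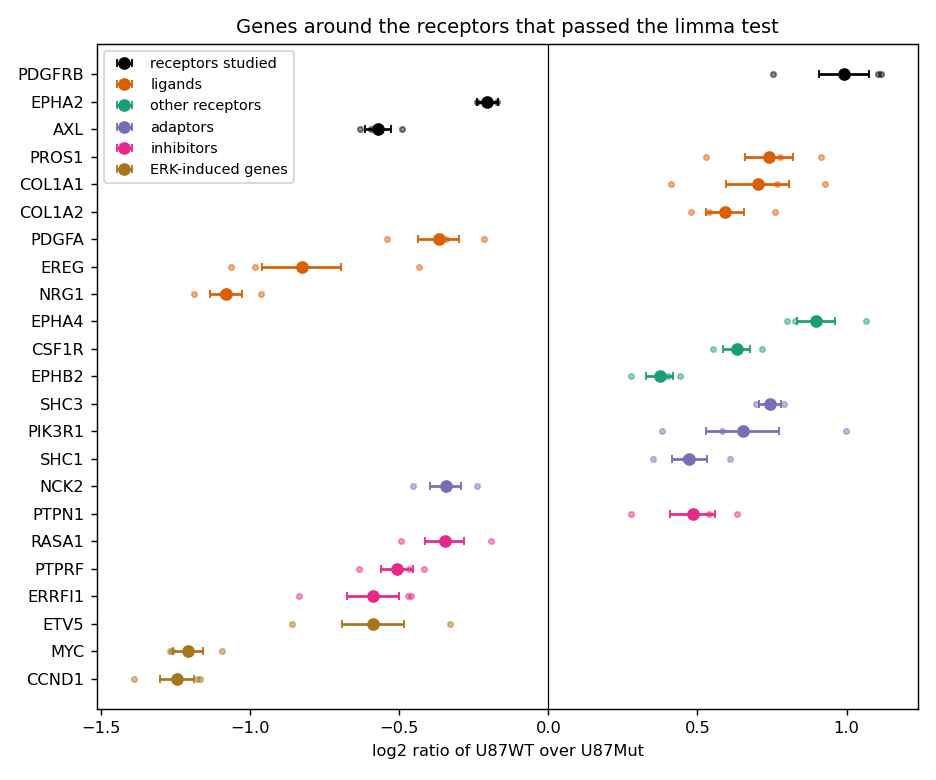
Mean log2 ratio of U87WT over U87Mut (x axis) with the SE of the limma fit (bars) and the 3 single arrays (small dots) for PDGFRB, EPHA2, AXL and those named genes of 5 lists that passed by their brightest probe (y axis), all with an adjusted p under 0.05. CCND1, MYC and NRG1 lie lowest and PDGFRB and EPHA4 highest; these genes were picked because they passed, so their distance from 0 is no evidence about the lists.

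**Figure D4:**
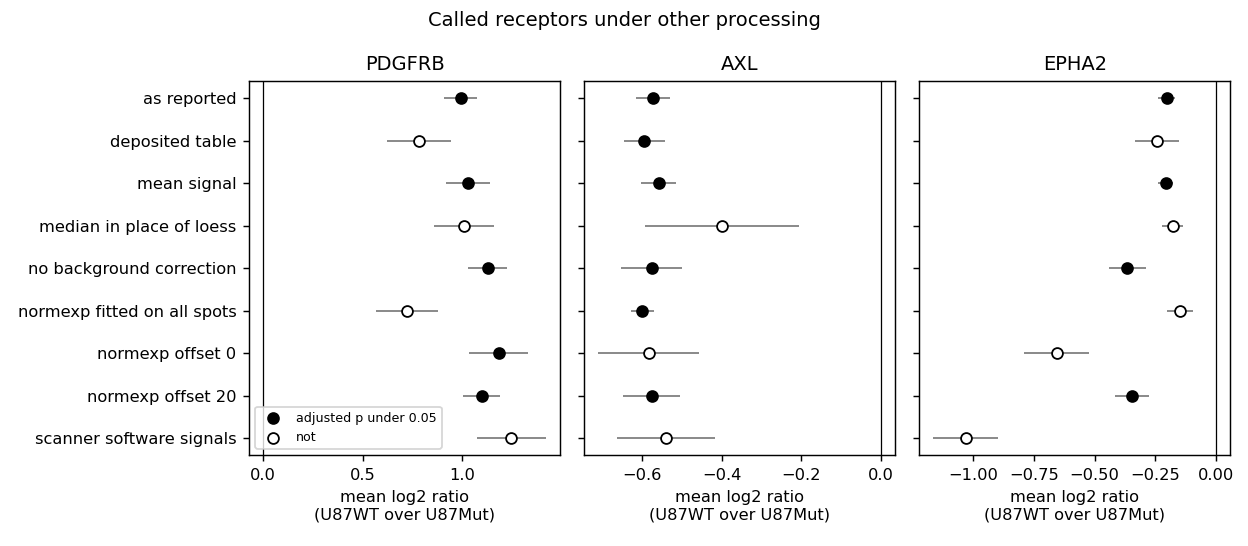
Mean log2 ratio of U87WT over U87Mut with its SE (x axis) for the brightest probes of PDGFRB, AXL and EPHA2 under 9 ways of processing the same 3 arrays (y axis); filled points passed 5% after adjustment. PDGFRB lies above 0 and AXL and EPHA2 below 0 under each, though which pass the test varies.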

How the data were processed

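RNA of U87WT (Cy5) and U87Mut (Cy3) was measured on 3 Agilent arrays of 1 slide, scanned once, 1 array per condition. The intensity values were deposited as Agilent Feature Extraction 12.0.3.1 wrote them, per the file headers: median brightness of each spot and its local background, a background-subtracted mean, and signals corrected for background and dye. The authors also deposited log2 ratios, normalized with limma per the methods; the kinds of correction are not given in the sources used here.

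Log2 ratios were obtained with limma 3.58.1 under R 4.3.3, reading the files through data.table, version 1.17.8. Median brightness was corrected by normexp, offset 50, fitted without spots marked as not uniform in either channel (384, 572 and 5 of 62976 spots on the arrays without serum, with IGF1 and with both agents). The SD of the fitted Cy5 background on the IGF1 array was 1.32, and 701 with these spots. Control, non-uniform and outlier spots were left out, arrays were normalized by loess within and Aquantile between arrays, and repeated spots averaged per probe. No spot was saturated (0 on each array). RefSeq transcripts named 34892 probes (GRCh38.p14). A ratio was tested against 0 with lmFit and eBayes (intercept only, 3 arrays, adjusted p under 0.05); sizes used a limit of 0.5. Precision is limited by the number of arrays, and SE and p measure the spread between arrays of different treatment.

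The receptors and lists were chosen with earlier results of these data known. Named genes are the receptors, IGF1R, INSR, and from each list up to 3 called genes with the highest and up to 3 with the lowest mean ratio by the brightest probe, and any cell type marker. GAS6, VEGFA and ETV1 were added to these after the results were known. A clone not well above background on any array gives a bound, from the higher of its own value and the lowest value well above background on each array. The steps were tested on simulated data. Alternatives were other background fits, offsets, signals, normalizations, limits and probe choices, the deposited table, and leaving out each array.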

Additional observations from a re-analysis of the deposited data

How the results depend on the processing

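Both clones lie on every array, and the test on the ratio compares them within arrays. No paired analysis was possible because the labels give no replicate numbers to block on, beyond that pairing. PDGFRB, AXL and EPHA2 kept their direction under each of 12 alternatives, and the calls held in 8, 8 and 4 of them; the other 7 receptors were called in none. The number of receptor probes called by limma, 4 as reported, was 1 with the background fitted on all spots, with an offset of 0 and in the deposited table, 0 with the signals of the scanner software and with median normalization (with 4 and 3 receptor probes, and 10128 and 5182 of all probes, at an unadjusted p under 0.05), and 1 to 3 with an array left out: 2 without FBS-free medium, 3 without IGF1 and 1 without IGF1 with OSI906. By the brightest probe of each gene, an alternative chosen after seeing the data, it was 3. The genes of the 5 lists called, 24 as reported, were 6 on all spots, 5 at offset 0, 0 with scanner signals and with median normalization, 7 in the deposited table, and 8 to 31 with an array left out (14 without FBS-free medium, 31 without IGF1 and 8 without IGF1 with OSI906). Ratios past 0.5, 7 over the 3 arrays, were 15 at offset 0, 18 with scanner signals, 13 with median normalization, 2 at a limit of 1 and 29 at 0.5 SD of each array. Changes by IGF1 past 0.5, 4 over both clones, were 2 on all spots, 6 at offset 0, 10 with scanner signals, 8 with median normalization, 0 at a limit of 1 and 6 with no normalization between arrays. Changes by OSI906, 2 as reported, were 3 at offset 20, 7 at offset 0, 4 with no background correction, 8 with scanner signals, 1 over probes well above background and 0 at a limit of 1. Over all probes, 2601 higher and 2504 lower calls became 163 and 557 on all spots, 420 and 275 at offset 0, 179 and 606 in the deposited table, 0 with scanner signals and with median normalization, and 1116 and 807 without FBS-free medium and 405 and 332 without IGF1 with OSI906. The cause was not tested. Among the other genes named, the calls of 20 kept their direction in every alternative. Low signal limits PDGFRA, KDR and EPHA2.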
